A study of Mus musculus with 10 samples.

Results

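The MHC class I peptide loading genes are 10 of the 10767 genes measured by mRNA-sequencing in splenic CD8+ cDC1 of Ppef2+/+ and Ppef2-/- mice. They were picked by symbol: the heavy chains H2-K1 and H2-D1, their light chain B2m, the peptide transporter Tap1 and Tap2, its partner Tapbp (tapasin), the immunoproteasome subunits Psmb8, Psmb9 and Psmb10, and the transcriptional regulator Nlrc5. All 10 were in the table, and none was chosen by its measured values. CD8+ cDC1 were sorted as living MHCII+CD11c+CD11b- CD8+ cells from untreated mice of 8 to 13 weeks, matched for sex and age, and each library came from the spleens of 3 pooled mice. There were 5 sorts, each with 1 Ppef2+/+ and 1 Ppef2-/- library, so n = 5 per genotype. The Ppef2-/- allele is a knock-out first allele, in which a gene trap follows exon 4 and exon 5 is floxed. It was made in JM8A3.N1 embryonic stem cells and crossed to C57BL/6.

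MHC class I molecules display peptides from inside the cell to CD8+ T cells. Proteasomes cut proteins into peptides, the Tap1 and Tap2 transporter moves the peptides into the endoplasmic reticulum, and tapasin holds an empty heavy chain with B2m beside the transporter until a fitting peptide is bound. cDC1 also place peptides of engulfed material on MHC class I, which is called cross-presentation. Interferons are known to raise the transcription of these genes, and Nlrc5 is a regulator that acts at MHC class I promoters together with factors of the RFX, CREB/ATF and NF-Y families.

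The promoters of the heavy chains and of B2m are shown first, because these 3 genes are known to be regulated together. Each sequence covers the 180 bases before the start site in RefSeq (GRCm38.p6), 5′ to 3′ on the strand of the gene. Capitals mark matches to GGGATTCCC (a kappaB motif), AANNGAAA (the core of the sites of interferon regulatory factors), TGACG (the core of a cyclic AMP response element) and CCAAT, searched on both strands and free to overlap.
H2-K1, minus strand, chr17:34000348-34000527: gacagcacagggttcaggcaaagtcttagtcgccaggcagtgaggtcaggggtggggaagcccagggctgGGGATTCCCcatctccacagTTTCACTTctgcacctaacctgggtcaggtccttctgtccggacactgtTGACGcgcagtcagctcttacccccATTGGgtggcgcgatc
H2-D1, plus strand, chr17:35262914-35263093: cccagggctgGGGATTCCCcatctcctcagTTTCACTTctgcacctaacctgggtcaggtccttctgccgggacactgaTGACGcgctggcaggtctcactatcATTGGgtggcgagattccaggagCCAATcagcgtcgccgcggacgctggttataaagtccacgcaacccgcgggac
B2m, plus strand, chr2:122147507-122147686: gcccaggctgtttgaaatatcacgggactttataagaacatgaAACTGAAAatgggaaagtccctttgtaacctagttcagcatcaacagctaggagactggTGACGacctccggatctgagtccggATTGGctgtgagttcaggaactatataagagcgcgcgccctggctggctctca

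H2-K1 and H2-D1 held the 4 motifs in the same order and spacing. The kappaB motif began 20 bases before the interferon regulatory factor core and 69 bases before TGACG in both genes. ATTGG, the reverse complement of CCAAT, began 25 bases after the first base of TGACG in H2-K1, in H2-D1 and in B2m. A TGACG followed at this distance by ATTGG was found in 30 of the 32851 promoter windows of the table, 0.0913%, with only the 250 bases before the start site searched. Alone, GGGATTCCC was found in 0.301% of the windows, AANNGAAA in 21.3%, TGACG in 17.8% and CCAAT in 33.8%. Tap1 and Psmb9 lie head to head, with 225 bases between their RefSeq start sites, and are shown by the window before Tap1, in which GGGCGG (a GC box, in 32.7% of the windows) was marked too.
Tap1, plus strand, chr17:34187376-34187555: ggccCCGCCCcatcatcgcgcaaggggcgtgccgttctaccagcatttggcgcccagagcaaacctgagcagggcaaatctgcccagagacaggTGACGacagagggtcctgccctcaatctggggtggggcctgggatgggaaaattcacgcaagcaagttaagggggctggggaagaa
The motifs were chosen after these windows had been read, and a match is a description of letters, not a binding site. RefSeq windows were found for 8 of the 10 genes, all but Tap2 and Nlrc5. For H2-K1 a single start site was picked, and any other RefSeq window of this gene was left out of the motif positions.

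H2-K1 and H2-D1 are also alike in their coding sequence, which matters for 50-base reads. In the 5 coding exons of equal length, 822 of 894 bases were identical (91.9%). The most different 60 bases lie in coding exon 3, which encodes a part of the peptide groove, and differ at 15 positions, in capitals below (GRCm38).
H2-K1, minus strand, chr17:33999330-33999389: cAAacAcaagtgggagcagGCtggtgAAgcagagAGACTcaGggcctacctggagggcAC
H2-D1, plus strand, chr17:35263996-35264055: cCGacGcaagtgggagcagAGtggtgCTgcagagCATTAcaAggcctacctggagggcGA
The longest identical run was 91 bases in coding exon 4. Of all 50-base stretches of the H2-K1 transcript, 8.79% occurred in a transcript of another gene, and 6.94% occurred in H2-D1. For H2-D1 the share was 14.3%. How reads from such stretches were assigned is not given in the sources used here, so the values of both heavy chains hold this uncertainty. Stretches shared with other genes made up 2.0% of the Tapbp transcript, 0.861% of Tap1 and 0.737% of Tap2, and 0 of the other 5 transcripts.

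By GENCODE annotation (GRCm38), 7 of the 10 genes lie on chromosome 17 in the MHC region. Tapbp is at chr17:33915899-33929292, H2-K1 at chr17:33996017-34000347 and H2-D1 at chr17:35262730-35267499. Psmb9 (chr17:34181987-34187764), Tap1 (chr17:34187553-34197225), Psmb8 (chr17:34197721-34201454) and Tap2 (chr17:34203527-34216321) form a cluster of 34.3 kb. B2m is at chr2:122147686-122153083, Nlrc5 at chr8:94434356-94527272 and Psmb10 at chr8:105935735-105938444. In GENCODE the first exons of Psmb9 and Tap1 overlap by 212 bases on opposite strands, while the RefSeq start sites given above lie apart. Exons of Tapbp (682 bases), Tap2 (25 and 518), Psmb8 (186) and Nlrc5 (43) also overlap other GENCODE genes on the opposite strand. The authors counted reads per RefSeq gene.

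The values are normalised read counts with a property that limits them. In 10721 of the 10767 genes, adding the Ppef2+/+ and the Ppef2-/- value of any sort gives 1 fixed total per gene, with a largest relative spread of 6.3e-06 over the sorts. The difference between the genotypes within a sort is therefore kept as a subtraction. The difference between sorts is gone, and the SDs of both genotypes are equal. Fold and log2 values within a sort are not kept exactly, since they are ratios of values without their sort means. For Psmb10, whole reads could be calculated back (248 to 893 per library), and with the sort means put back its SD was 47.7 instead of 26.7 in Ppef2+/+ libraries and 26.6 instead of 26.7 in Ppef2-/- libraries. For 2 genes named below, the mean log2 difference then was 0.369 instead of 0.42 (H2-T22) and 0.661 instead of 0.47 (Tgtp2). Because the sort means were taken out, a fit without a term for the sort counts degrees of freedom that the values no longer hold, and the fit with the sort as block is given beside it. Per the study's methods, the 5 sorts were made independently of each other, each from its own pools of mice.

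Ppef2, the targeted phosphatase gene, was given as 243.0, 196.0, 170.4, 162.4 and 211.7 over sorts 1 to 5 in Ppef2+/+ CD8+ cDC1. In Ppef2-/- cells it was given as 1.0, 3.036, 28.58, 36.67 and 1.0, where 1 is the lowest deposited value. The sort means were taken out here too, so 28.58 and 36.67 are not levels of Ppef2 mRNA left in the knockout. The paper reports no Ppef2 reads above background in Ppef2-/- cells. Every knockout library was below every Ppef2+/+ library. All 14 listed cDC1 markers were in the table, with sums of 82650 to 86128 in Ppef2+/+ and 82179 to 85657 in Ppef2-/- libraries. T and NK cell genes were not in the table (0 of 9), and the summed markers of each other cell type stayed at or below 2708 in any library. Of these markers, those with a mean over 100 were Sirpa, Irf4 and Cd4 (cDC2), Siglech, Bst2, Tcf4, Spib and Ccr9 (pDC), Ms4a1 (B cell) and Csf1r, Cd68, Lyz2, Ccr2 and Vcam1 (macrophage and monocyte). The sums of the 8 pDC markers did not overlap, at 1355 to 1485 in Ppef2+/+ and 1204 to 1334 in Ppef2-/- libraries. With a fixed total per sort, this only means a lower sum in every sort, and 6.18% of all single genes were free of overlap. The mean of Tcf4 was 423 in Ppef2+/+ and 342 in Ppef2-/- libraries. Siglech (157 and 131), Ly6c2 (67.3 and 49.7), Ly6d (25.9 and 16.7), Bst2 (284 and 275) and Pacsin1 (46.3 and 42.6) were lower in the knockout too. Only Spib (171 and 175) and Ccr9 (239 and 243) were higher in the knockout. Tcf4 was the 1 marker of another cell type called with genotype only (log2 difference -0.31, adjusted p = 0.0182, and 0.711 with the block). The part of these markers in the values below was not tested.

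The peptide loading genes were among the more abundant mRNAs of CD8+ cDC1. Per kb of exon, the mean over all 10 libraries was above the median of all genes (53.1) for each of them, and B2m was 53.5 times higher than Nlrc5. B2m was highest with 11502 ± 569 normalised read counts per kb (SD within a genotype, n = 5), above 99.9% of the genes that could be matched to an annotated length. H2-D1 (5673 ± 166) and H2-K1 (5656 ± 127) came next and did not differ by more than their SD. Psmb8 (1435 ± 49.6 per kb), Psmb9 (1290 ± 83.1) and Tap1 (1173 ± 61.7) followed, and the SD ranges of Psmb9 and Tap1 overlapped. Tapbp reached 785 ± 31.7, Tap2 582 ± 16.6, Psmb10 307 ± 20.3 and Nlrc5 215 ± 12.5 per kb, and Nlrc5 was still above 85.1% of the genes.

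**Figure D1:**
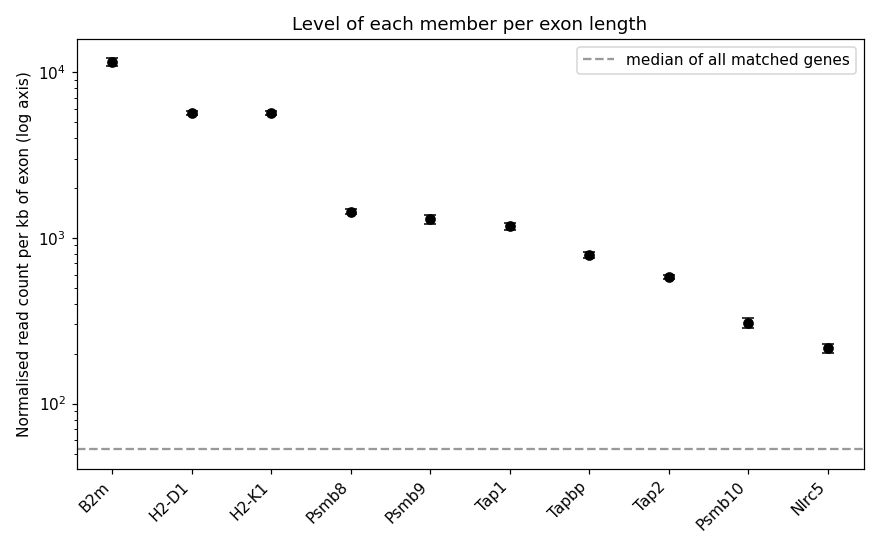
Mean normalised read count per kb of exon over all 10 libraries (log axis) for each gene, with the SD within a genotype (n = 5) as bars and the median of all matched genes as a dashed line. B2m is highest at 11502 and Nlrc5 lowest at 215.

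The immunoproteasome subunits replace catalytic subunits of the standard proteasome, Psmb8 replacing Psmb5, Psmb9 replacing Psmb6 and Psmb10 replacing Psmb7. On the scale per kb, Psmb8 was 3.66 times Psmb5 and Psmb9 was 2.78 times Psmb6. Psmb10 was 0.556 times Psmb7, so that this subunit alone was below its counterpart. Tap1 was 2.02 times Tap2, its partner in the transporter, and B2m was 2.03 times H2-K1 and 2.03 times H2-D1. The changes of these log2 ratios between the genotypes were small against their spread over the sorts, for example 0.05 with an SD of 0.0976 for Tap1 over Tap2 and 0.10 with an SD of 0.148 for Psmb9 over Psmb6.

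The comparison of the genotypes asked whether loss of Ppef2 goes along with another level of these genes. None of the 10 passed an adjusted p of 0.05 in limma, neither with genotype only, where 103 of all genes did (0.957%), nor with the sort as block, where 1 gene did (0.00929%), Ppef2 itself. At an unadjusted p under 0.05, 1 of the 10 (Nlrc5) was below it in each fit, beside 17.5% of all genes with genotype only and 4.29% with the block. In none of the 10 were the genotypes free of overlap, compared to 6.18% of all genes. The estimated differences ran from -0.005 (Psmb9) to 0.138 (Nlrc5) on the log2(value + 1) scale, with a median of 0.046 beside 0.0009 for all genes, and 9 of 10 were above 0 beside 5433 of 10767 genes. With the sort as block, the 95% confidence intervals of the 9 genes other than Nlrc5 lay between a 0.912-fold and a 1.16-fold level in Ppef2-/- CD8+ cDC1.

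**Figure D2:**
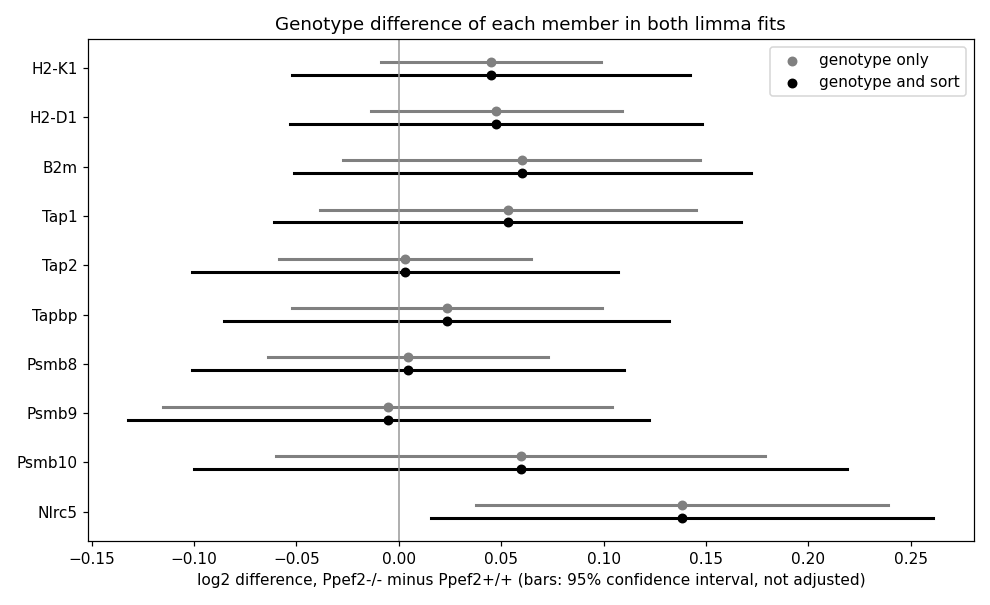
Log2 difference between Ppef2-/- and Ppef2+/+ CD8+ cDC1 for each gene, with unadjusted 95% confidence intervals from limma with genotype only (grey) and with genotype and sort (black). The block intervals include 0 for 9 genes, and that of Nlrc5 runs from 0.0158 to 0.261.

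H2-K1 and H2-D1 are the classical heavy chains of the C57BL/6 strain. H2-K1 measured 9263, 8985, 9002, 9404 and 9418 over sorts 1 to 5 in Ppef2+/+ cells, against 9458, 9736, 9719, 9317 and 9303 in Ppef2-/- cells, and all values below follow this order of sorts. It was higher without Ppef2 in sorts 1 to 3 and slightly lower in sorts 4 and 5, with a mean log2 difference of 0.05 (block SE 0.0465, adjusted p = 0.995). H2-D1 measured 11978, 11823, 11130, 11744 and 11967 in Ppef2+/+ and 11871, 12026, 12718, 12105 and 11882 in Ppef2-/- libraries. Sort 3 stood apart with a 1.14-fold higher level in the knockout, while the other 4 sorts lay between 0.991-fold and 1.03-fold (mean log2 difference 0.05, block SE 0.0481, adjusted p = 0.995).

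B2m is the light chain that pairs with the classical MHC class I heavy chains in the endoplasmic reticulum. Its values were 9811, 9454, 10226, 8968 and 9971 in Ppef2+/+ libraries and 9972, 10329, 9556, 10815 and 9812 in Ppef2-/- libraries. The knockout library was 1.21-fold higher in sort 4 and 0.934-fold in sort 3, so the direction was not shared (mean log2 difference 0.06, block SE 0.0533, adjusted p = 0.995). Sort 3 was the sort in which H2-K1, H2-D1 and 7 other genes were higher in the knockout, and B2m was the 1 exception.

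**Figure D3:**
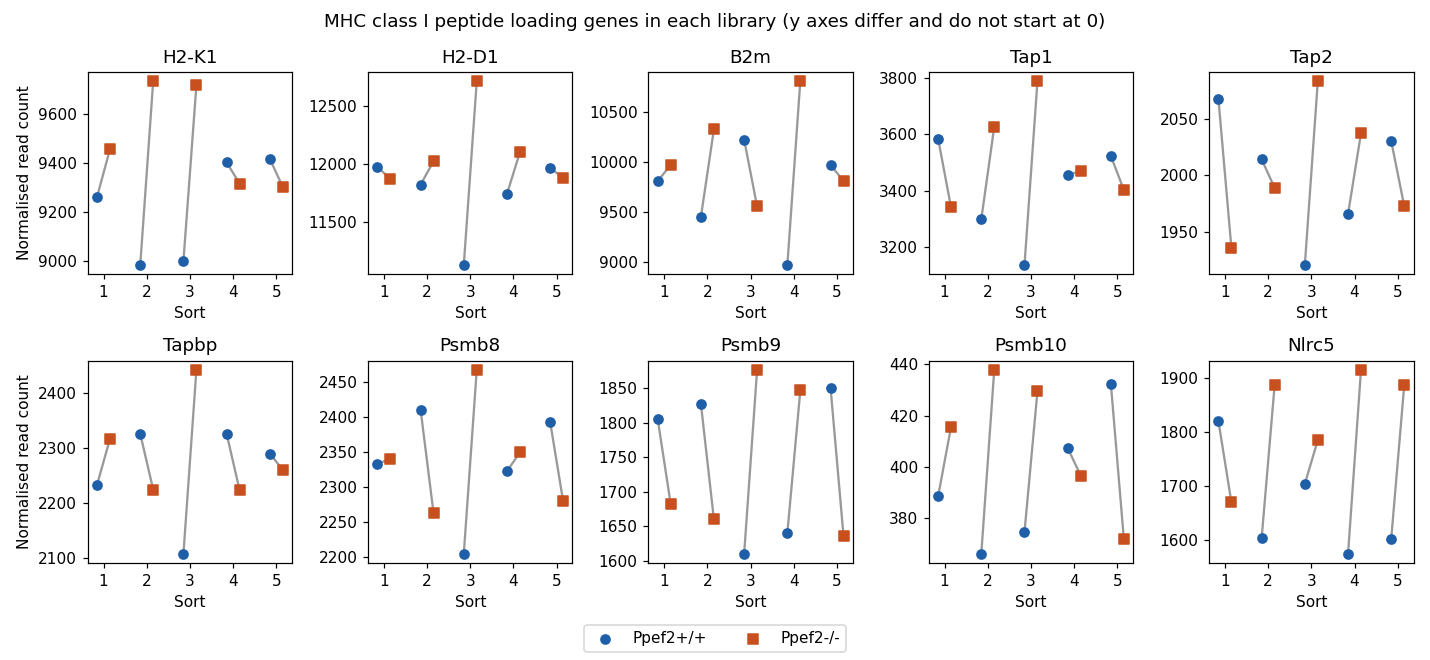
Normalised read count of each gene in the Ppef2+/+ (circles) and Ppef2-/- (squares) library of sorts 1 to 5, joined within a sort. The y axes differ and do not start at 0, and no gene has lines that all run in the same direction.

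Tap1 and Tap2 form the transporter. Tap1 measured 3585, 3298, 3135, 3454 and 3523 in Ppef2+/+ libraries and 3340, 3627, 3790, 3471 and 3402 in Ppef2-/- libraries. It was 1.21-fold higher in the knockout of sort 3 and 0.932-fold in sort 1 (mean log2 difference 0.05, block SE 0.0546, adjusted p = 0.995). Tap2 measured 2067, 2014, 1921, 1966 and 2030 in Ppef2+/+ and 1936, 1989, 2083, 2037 and 1973 in Ppef2-/- libraries, a mean log2 difference of 0.003 (block SE 0.0498). Both transporter genes were lower in the knockout in sorts 1 and 5 and higher in sorts 3 and 4. Tapbp, which bridges transporter and heavy chain, measured 2233, 2326, 2107, 2326 and 2290 in Ppef2+/+ and 2317, 2224, 2443, 2223 and 2260 in Ppef2-/- libraries. Its level was 1.16-fold higher in sort 3 and between 0.956-fold and 1.04-fold in the other sorts.

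The immunoproteasome subunits showed no shared direction either. Psmb8 had 2334, 2411, 2205, 2323 and 2393 normalised reads in Ppef2+/+ and 2340, 2263, 2468, 2350 and 2280 in Ppef2-/- libraries, with a mean log2 difference of 0.004 (block SE 0.0505). Psmb9 had 1805, 1827, 1610, 1640 and 1851 in Ppef2+/+ and 1682, 1660, 1877, 1847 and 1636 in Ppef2-/- libraries. It was higher in the knockout in sorts 3 and 4 and lower in sorts 1, 2 and 5, from 0.884-fold to 1.17-fold, and the mean log2 difference was -0.005 (block SE 0.0609). Psmb10, the least abundant of the subunits, had 388.3, 365.9, 374.4, 407.3 and 432.2 in Ppef2+/+ and 415.6, 437.9, 429.5, 396.5 and 371.6 in Ppef2-/- libraries. Its within-sort level ran from 0.86-fold in sort 5 to 1.2-fold in sort 2, with a mean log2 difference of 0.06 (block SE 0.0764, adjusted p = 0.995).

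Nlrc5 had the largest difference of the 10 genes. It measured 1820, 1604, 1704, 1575 and 1603 in Ppef2+/+ libraries and 1670, 1886, 1785, 1915 and 1886 in Ppef2-/- libraries. The knockout was higher in 4 of 5 sorts, by 1.05-fold to 1.22-fold, and lower in sort 1, where it reached 0.917-fold. The mean log2 difference was 0.14, with an SE of 0.0465 and an adjusted p of 0.151 with genotype only, and an SE of 0.0587, an unadjusted p of 0.029 and an adjusted p of 0.995 with the block. An exact permutation test that exchanged the genotypes within the 5 sorts gave a two-sided p of 0.1875 for Nlrc5 and 0.25 to 0.9375 for the other genes, and 0.0625 is the smallest p this design allows.

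Seen sort by sort, most of the genes shared a direction in sorts 3 and 5, and the direction was not the same in both. In sort 3, 9 of 10 genes were higher in the Ppef2-/- library, with a median log2 difference of 0.18, and in sort 5, 9 of 10 were lower, with a median of -0.03 and Nlrc5 as the exception. Sorts 1, 2 and 4 had 5, 6 and 7 genes higher in the knockout. Of all genes, 49.6, 49.0, 50.2, 52.3 and 50.2% were higher in the knockout in sorts 1 to 5. Of the 1035 other genes with a mean of at least 1000, 55.3, 41.4, 40.9, 68.4 and 40.6% were higher in sorts 1 to 5. The 7 of 10 in sort 4 were near the share of these genes. Of the 10 genes, Psmb10 had a mean of 401.9 and so lay below that limit. The median log2 difference of the other genes was -0.026 in sort 3 and -0.033 in sort 5. In sort 5 the median of the 10 genes was thus near theirs. Without sort 3, the mean difference in the block fit fell below 0 for Tap1 (-0.00195), Tap2 (-0.0255), Tapbp (-0.0239) and Psmb8 (-0.0352). The genes share their libraries, so these counts describe libraries and are no replicates of the genotype.

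**Figure D4:**
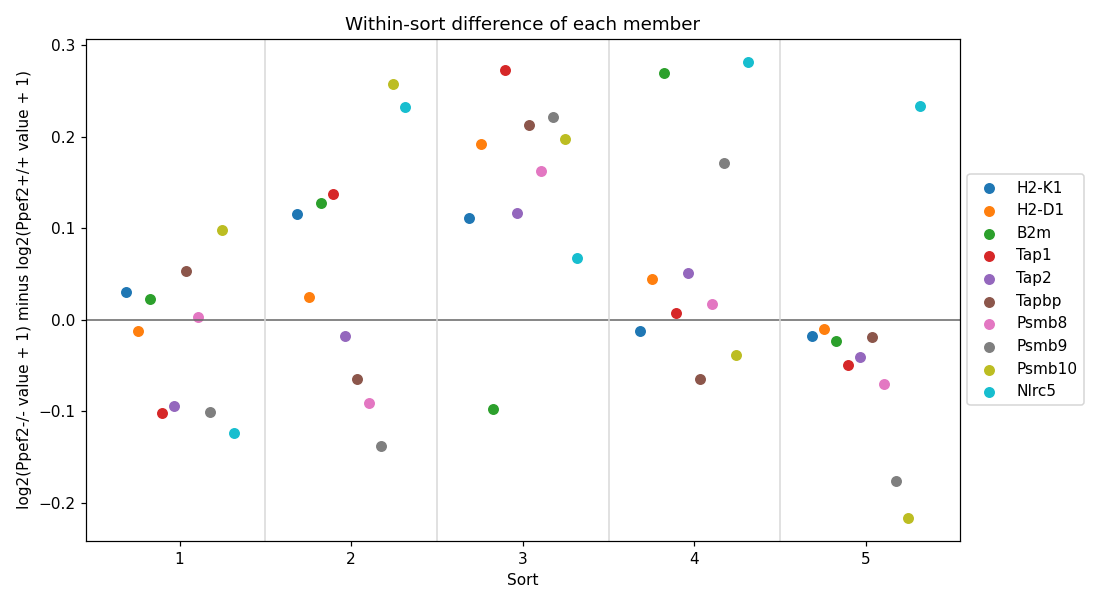
Within-sort log2 difference, Ppef2-/- minus Ppef2+/+ (1 point per gene and sort, coloured by gene). In sort 3, 9 of 10 points are above 0, and in sort 5, 9 of 10 are below 0.

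Counting error is smaller than many of these differences. The depth of the Ppef2-/- library over that of the Ppef2+/+ library was 2.95, 2.31, 1.6, 0.875 and 0.727 in sorts 1 to 5, as read from the value of 1 read. This gave about 6227 to 20156 reads per library for H2-K1 and about 1160 to 3754 for Psmb9. The counting SD of a within-sort difference was 1.4 to 1.61% of the mean for H2-K1, 3.24 to 3.74% for Psmb9 and 6.75 to 7.79% for Psmb10. Of the 50 within-sort differences, 25 were beyond 2 counting SDs, compared to 41.9% for the other genes with a mean of at least 1000. Psmb10 has a lower mean than these genes. Sort 3 held 8 of the 25 and sort 5 held 2. All 5 differences of Psmb9 were beyond 2 counting SDs, with 2 up and 3 down. These SDs cover counting error only, since reads copied by PCR are not independent molecules.

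The rest of the pathway was read from a list of 75 further genes, of which 68 were in the table. At an adjusted p under 0.05, 0 of these were called by limma in either fit. At an unadjusted p under 0.05, 6 were higher and 2 lower with genotype only, beside 17.5% of all genes in either direction. With the block 2 were higher and 0 lower, beside 4.29% of all genes. The median log2 difference of the list was 0.01, beside 0.0009 for all genes. H2-T22, a non-classical heavy chain, was at 158 ± 27.3 (SD, n = 5) in Ppef2+/+ and 211 ± 27.3 in Ppef2-/- CD8+ cDC1, higher in 4 of 5 sorts and lower in sort 4, where the log2 difference was -0.26 (mean 0.42, block unadjusted p = 0.00352, adjusted p = 0.995). Heavy chains of the H2-T group are near copies of each other, so this value is uncertain. Tapbpl, a tapasin-related editor of the bound peptide, was at 488 ± 11.8 and 538 ± 11.8 and was higher in the knockout in 5 of 5 sorts (log2 difference 0.14, adjusted p = 0.0533 with genotype only, and unadjusted p = 0.037 and adjusted p = 0.995 with the block). These SDs lack the difference between sorts. With the sort means put back, they were 39.5 in Ppef2+/+ and 22.8 in Ppef2-/- libraries for Tapbpl, whose genotypes then overlapped. Within sorts, Tapbpl was still higher in the knockout in 5 of 5, with a mean log2 difference of 0.143. For H2-T22 the SDs with the sort means put back were 9.96 and 55.4.

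The chaperones that act with tapasin stayed near their level when all sorts were averaged. The log2 difference was -0.01 for Calr (calreticulin) and Pdia3 (ERp57) and 0.02 for Canx (calnexin), each with an adjusted p of at least 0.995 with the block. Within sort 4, however, all 11 genes of the chaperone and editing group were higher in the knockout, with a median log2 difference of 0.23, and in sort 5 only Tapbpl was higher, with a group median of -0.18. The other genes with a mean of at least 1000 had medians of 0.065 in sort 4 and -0.033 in sort 5. The peptide loading genes had medians of 0.03 and -0.03 in the same sorts. Erap1, which trims peptides in the endoplasmic reticulum, had a log2 difference of 0.02. The proteasome activator genes Psme1 and Psme2 had differences of 0.01 and 0.07. Among the constitutive subunits, Psmb5 was at 0.00, Psmb7 at 0.01 and Psmb6 at -0.11, and among regulators Irf1 was at 0.10 (4 of 5 sorts higher) and Rfx5 at 0.08 (4 of 5 sorts higher). None of these passed an unadjusted p of 0.05 with the block.

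Interferon-stimulated genes outside antigen presentation were read beside the members, as 40 of 44 listed genes were in the table. None was called at an adjusted p under 0.05 by limma in either fit. At an unadjusted p under 0.05 with the block, 5 were higher and 0 lower, beside 4.29% of all genes in either direction. With genotype only 7 were higher and 3 lower, beside 17.5% of all genes. The 5 were the chemokine Cxcl9 (log2 difference 0.32) and the interferon-inducible GTPases Gbp2 (0.50), Ifi47 (0.43), Tgtp1 (0.26) and Tgtp2 (0.47). In the deposited values, sort 4 held the largest log2 differences of 4 of them. These were 1.74 for Gbp2, 1.00 for Cxcl9, 1.11 for Ifi47 and 1.47 for Tgtp2. With the sort means put back, Tgtp2 was at 25.55 in Ppef2+/+ and 117.1 in Ppef2-/- cells in sort 3. In sort 4 it was then at 78.55 and 204.0, a smaller ratio than in sort 3. Tgtp1 and Tgtp2 are near copies and may share reads. The median of the list was 0.06, -0.04, 0.13, 0.34 and -0.14 in sorts 1 to 5, beside -0.005, 0.07, 0.18, 0.03 and -0.03 for the peptide loading genes, and in sorts 1 and 2 the medians had opposite signs. In sort 4 the log2 differences of Nlrc5, B2m and Psmb9 were 0.28, 0.27 and 0.17, and those of H2-K1 and Tapbp were -0.01 and -0.07. The part of an interferon signal in these values was not tested.

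MHC class II genes, which present peptides to CD4+ T cells, were the nearest comparison. All 14 listed genes were in the table, and 0 passed an adjusted p of 0.05 by limma in either fit. With the block 0 were below an unadjusted p of 0.05, beside 4.29% of all genes. With genotype only 2 were higher and 1 lower, beside 17.5% of all genes in either direction. Their medians in sorts 1 to 5 were 0.02, -0.01, 0.03, 0.11 and -0.05.

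**Figure D5:**
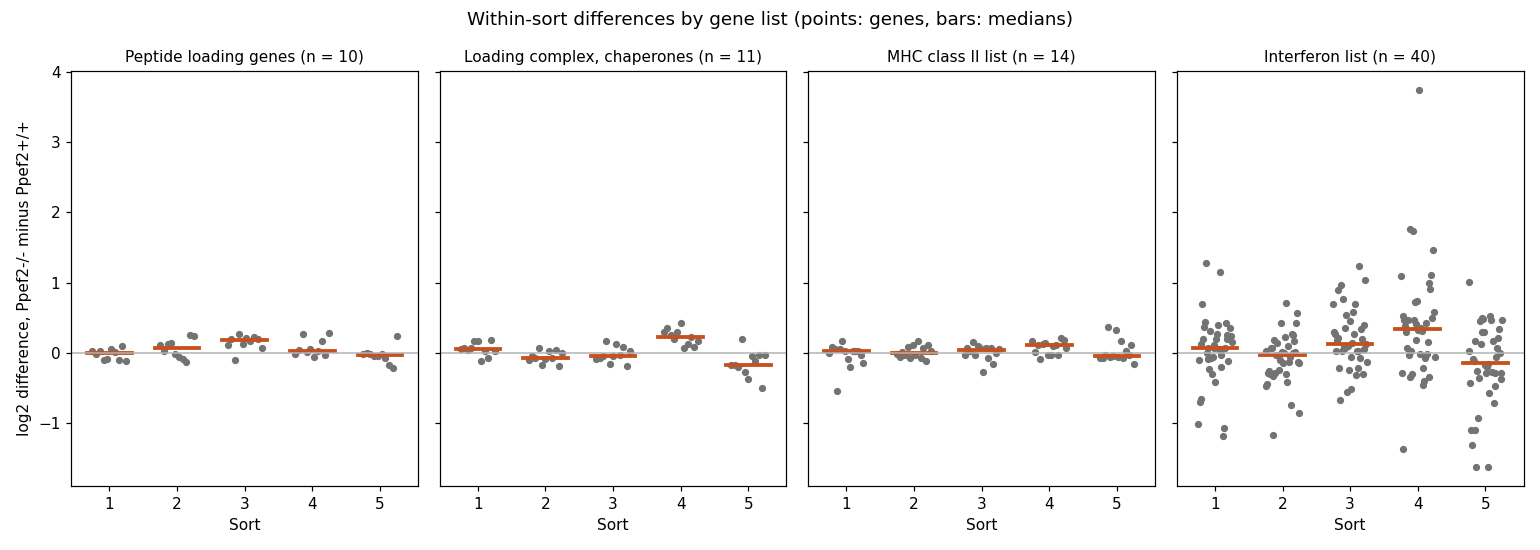
Within-sort log2 differences (points, 1 per gene) and medians (bars) for the peptide loading genes, the chaperone and editing group, the MHC class II list and the interferon list. The peptide loading genes have their highest median (0.18) in sort 3, the chaperones (0.23) and the interferon list (0.34) in sort 4.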

How the data were processed

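Unstranded poly-A libraries of CD8+ cDC1 were read single-end over 50 bp. Per the paper's methods, the authors aligned reads to mm10 with HISAT (the submitters' processing notes name TopHat2 2.0.3), counted them per RefSeq gene in Partek 6.6, normalised them with DESeq2, set values under 1 to 1 and removed genes with a mean under 10 in both genotypes. The deposited values are thus a normalised count signal, not raw counts. All 10 columns were used and 0 left out. Groups and sorts come from the labels. The sort number marks a shared sort, and deviations of both libraries of a sort correlated with r = -1.00 in each sort.

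Differences were tested with limma 3.58.1 in R 4.3.3 (eBayes with trend, log2(value + 1), two-sided, Benjamini-Hochberg over 10767 genes), with genotype only, as in the one-way model of the study, and with the sort as block. The fits were tested on simulated data, in which the changed genes had larger changes than any of the 10 genes. The simulation therefore does not cover differences as small as theirs. The value of 1 read was found from the steps in the within-sort differences, after the values had been seen. Lengths come from GENCODE M21 basic exons, with 96.3% of genes matched. The text names all 10 genes, Ppef2, listed genes with a block p under 0.05 and fixed partners. In the pathway list, 1 gene is not reported here and is left out of the counts of that list. The members, lists and motifs were chosen with earlier results of these data known.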

Additional observations from a re-analysis of the deposited data

Results flagged for a closer look

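For each of the 10 genes and both genotypes (20 groups of 5 libraries), the distance of the highest and of the lowest library to its nearest neighbour was compared with the range of the group. H2-D1 stood apart in sort 3, with the lowest Ppef2+/+ value, 11130, and the highest Ppef2-/- value, 12718. Since the values of a sort add up to a constant, both are the same event seen from both genotypes. Chance alone flags about 1 in 20 groups.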

How the results depend on the processing

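The count of all genes with an adjusted p under 0.05 was 103 with genotype only. It was 193 without the trend, 183 on untransformed values and 1 with the sort as replicate block, and it ran from 1 to 23 when single libraries were left out. With the block the count was 1. It was 0 without the trend and 103 with no replicate block, and it ran from 1 to 4 when single sorts were left out. Fewer libraries entered the last of these fits, and the cause of the other changes was not tested. No gene of the 10 was called under any of these alternatives or under another pseudocount, filter or scaling, and the block changed no call among them. Directions turned only when libraries or sorts were left out. With genotype only, the log2 difference then ran from -0.0338 to 0.0165 for Psmb9, -0.0114 to 0.0152 for Tap2, -0.000915 to 0.0348 for Tapbp and -0.0159 to 0.0163 for Psmb8. With the block it ran from -0.0615 to 0.0379 for Psmb9, -0.00195 to 0.0919 for Tap1, -0.0255 to 0.0272 for Tap2, -0.0239 to 0.0458 for Tapbp and -0.0352 to 0.0282 for Psmb8. The other genes kept their sign with the block but moved, B2m from 0.00759 (without sort 4) to 0.0996, Psmb10 from 0.00986 (without sort 2) to 0.129, H2-D1 from 0.0113 (without sort 3) to 0.0626, H2-K1 from 0.0273 to 0.0608 and Nlrc5 from 0.103 to 0.204. Per kb of the longest transcript, Nlrc5 was at 230.0, and H2-K1 (5782 per kb) came before H2-D1 (5673). With the sort means put back, chosen after seeing the data, the mean log2 difference of Psmb10 was 0.065.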
